A study of Mus musculus with 34 samples.

Results

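The IL-6 family was followed through 10 genes in 34 mRNA libraries of the mouse left ventricle (LV): the ligands Il6, Lif, Il11 and Osm, the receptor subunits Il6ra, Il6st, Osmr and Lifr, the feedback inhibitor Socs3 and the transcription factor Stat3. The rows were taken by gene symbol from both deposited tables, and all 10 genes were listed in each, among 14552 genes in the first table and 17406 in the second. A filter of a mean of at least 1 CPM (reads of a gene scaled to a normalized library size) was passed by 10 of the 10 in the first table and by 9 of the 10 in the second, where Il11 stayed under it.

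In this family, each ligand binds receptor subunits that include Il6st, the signalling chain that all of them share. Il6ra makes a cell responsive to IL-6, Osmr to oncostatin M and Lifr to leukemia inhibitory factor. The engaged receptor activates Janus kinases, which phosphorylate STAT3, and STAT3 turns on genes of the acute phase and of tissue repair. One of these is Socs3, whose protein binds the shared chain and shuts the signal off. In the injured heart the family is known for its part in inflammation, in survival signals to cardiomyocytes and, for IL-11, in fibrosis.

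All mice were of the CFW strain, and MI was made by tying off the left anterior descending artery for good. The first table held 3 control hearts, 3 hearts at 4 h post-MI and 4 hearts at 24 h post-MI, none of them injected, from the ischemic area or the matching area of the controls. The controls are titled sham, and the paper describes them as sham operated. Their stress label, however, says that no operation was made and gives no time. The second table held 2 sham-operated, uninjected hearts labelled 4 h, and infarcted hearts injected in the border zone right after ligation with Luc or AC modRNA, a synthetic messenger RNA. These numbered 4 with Luc and 4 with AC at 4 h, 3 and 3 at 24 h, and 4 and 4 at 48 h. Luc encodes a luciferase and served as the control RNA, whereas AC is not spelled out in the labels. No infarcted heart of the second table went uninjected, so that MI and injection cannot be told apart there. Nor can time and library series, since the titles of the sham and 4 h libraries share 1 numbered series, those at 48 h another, and those at 24 h carry none. The age and sex of the mice were not given in the labels.

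The first table rested on an estimated 12553519 to 18952669 reads per library, taking the lowest value of a library as 1 read. On that reading 1 read was worth 0.0313 to 0.0479 CPM. The paper reports a higher mean number of reads per sample. The depth of the second table is unknown. Cardiomyocyte markers summed to 20870 CPM or more in each library. The correlations of each library with the others of its group averaged 0.959 or more. Both 24 h libraries named A and the Luc 48 h libraries 1 and 3 had more Il6 than the others of their groups. Among libraries of other groups, Luc 48 h libraries 2 and 4 correlated best with an AC 48 h library (0.980 and 0.981). In the same search, libraries 1 and 3 correlated best with AC 24 h library C (0.962 and 0.961). Within their own group the correlations of libraries 1 and 3 averaged 0.969 and 0.962, and those of libraries 2 and 4 averaged 0.970 and 0.961. In whole tissue, fewer cells of a type and less RNA per cell cannot be told apart.

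The letters upstream of the start sites are shown for Il6, Socs3, Lif and Il11, chosen because each holds 1 or more of 3 motifs searched there. RefSeq windows (GRCm38.p6, the build of the files) were matched for 9 of the 10 members, and Osm was not in that set. The 250 bases before each start were searched on both strands for a STAT motif, TTCNNNGAA, an AP-1 motif, TGANTCA, and an NF-kB motif made of GGG, any pair of bases and TTTCC. Each stretch reads 5′ to 3′ on the gene's strand, with the motif in capitals.
Il6, AP-1 motif, chr5:30012864-30012893, plus strand: cTGAGTCActtttaaagaaaaaaaagaaga
Il6, NF-kB motif, chr5:30013060-30013089, plus strand: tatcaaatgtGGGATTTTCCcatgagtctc
Socs3, STAT motif, chr11:117969501-117969530, minus strand: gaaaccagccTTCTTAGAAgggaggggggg
Lif, AP-1 motif, chr11:4257329-4257358, plus strand: ccagtcagctgTGACTCAggccatagtggc
Il11, AP-1 motif, chr7:4778221-4778250, minus strand: aggagggagggTGAGTCAggatgtgtcagg

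In Il6 the NF-kB motif lay 44 to 35 bases before the start, and in Socs3 the STAT motif lay 154 to 146 bases before it. The STAT motif was present in 1 of the 9 members, Socs3, and in 7.02% of all 32851 windows. The NF-kB motif was present in 1 member, Il6, and in 1.41% of windows, and the AP-1 motif in 3 members and in 6.75% of windows. Il11 and Lifr had a pair of windows each, and the second window of Il11 held none of the 3 motifs. The 5 members Il6ra, Il6st, Osmr, Lifr and Stat3 held none of them in these windows. These are matches of letters, and no binding was measured.

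Il6 and Socs3 rose at 4 h post-MI compared to control hearts and stayed high at 24 h, and no other member passed the test at 4 h in the first table. Il6, the acute inflammatory cytokine (chromosome 5 of mm10, 30013114 to 30019975), had 0.0723, 0.121 and 0.163 CPM in the control hearts. It had 25.1, 25.6 and 23.3 CPM at 4 h and 35.1, 25.1, 14.3 and 26.4 CPM at 24 h. Every infarcted heart was far above every control heart, while the 4 h hearts lay within the range of the 24 h hearts. The control values stood for 2 to 5 estimated reads per library. Reads are estimates here and below, since 84.2% of low values were whole multiples of 1 read, and intervals made from them are approximate. The estimated reads at 4 h were 205 times those of controls (95% interval 111 to 428, counting error only). The log2 fold change on the scale of log2(CPM + 1) was 4.52 at 4 h (standard error, SE, 0.24, limma q = 1.5e-06) and 4.49 at 24 h (SE 0.22, limma q = 1e-07), where q is the Benjamini-Hochberg adjusted p-value over all genes tested.

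Socs3, the feedback inhibitor of the shared receptor chain (chromosome 11, 117966087 to 117969366, minus strand), had 3.94, 2.94 and 3.25 CPM in control hearts. It had 93.3, 109.8 and 83.9 CPM at 4 h and 121, 126, 77.1 and 99.5 CPM at 24 h. The groups of infarcted hearts overlapped each other and neither overlapped the controls. From a mean of 3.38 ± 0.511 CPM (SD, n = 3), Socs3 reached 95.7 ± 13.1 CPM (SD, n = 3) at 4 h, a 28.3-fold rise with a log2 fold change of 4.46 (SE 0.18, limma q = 3.5e-07). At 24 h the rise was 31.4-fold, with a log2 fold change of 4.59 (SE 0.17, limma q = 2e-08).

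Of the 10 members tested at 4 h, 2 were called higher and 0 lower, beside 2.37% of all genes tested called in either direction. The groups did not overlap for 7 of the 10, 5 higher and 2 lower, beside 28.8% of all genes tested. The median log2 fold change of the members was 0.42, and that of all genes -0.03. Osm, oncostatin M, had 0.0362, 0.121 and 0.0975 CPM in controls and 0.564, 1.58 and 1.05 CPM at 4 h, without overlap, and a limma q of 0.15. Its estimated reads were 12.2 times those of controls (95% interval 5.62 to 31.3, counting error only). Osm is thus a low gene in which the pseudocount of 1 CPM hides most of the ratio, and with 0.1 CPM its log2 value was 2.58 instead of 0.90, with q = 0.0056. Lif and Osmr also lay without overlap above the controls at 4 h, with log2 values of 0.55 (q = 0.22) and 0.68 (q = 0.18). Osmr was at 16.47, 34.4 and 16.45 CPM at 4 h, library D being the highest. Stat3 had a log2 value of 0.00 (95% interval -0.30 to 0.30).

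At 24 h post-MI, 8 of the 10 members were higher than in control hearts and 1, Lifr, was lower, while 66% of all genes tested were called. A share of that size leaves little to read from the count alone, but the sizes were large, with a median log2 fold change of 2.63 for the members and 0.04 for all genes. The groups did not overlap for 9 of the 10, Il6st being the exception, beside 64% of all genes tested. Il11, Osm and Lif averaged 0.0861, 0.0849 and 0.450 CPM in controls and 0.172, 1.06 and 1.13 CPM at 4 h. They passed the filter only through the 24 h hearts. They are part of these counts and medians and of the counts of 24 h against 4 h.

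The other ligands rose between 4 h and 24 h. Il11, interleukin 11 (chromosome 7, 4772378 to 4782857, minus strand), had 0.0723, 0.121 and 0.0650 CPM in controls, 0.150, 0.287 and 0.0774 CPM at 4 h, and 13.6, 3.38, 6.52 and 9.67 CPM at 24 h. Control and 4 h hearts overlapped at 2 to 6 estimated reads per library, too few for a difference to be seen. The 24 h hearts were all higher than the others, with 96.0 times the estimated reads of controls (95% interval 46.4 to 239.5, counting error only). The log2 fold change at 24 h was 2.96 (SE 0.32, limma q = 1.1e-05). Osm (chromosome 11, 4236785 to 4241026) reached 16.7, 11.6, 6.16 and 10.2 CPM at 24 h, a log2 fold change of 3.42 compared to controls (SE 0.26, limma q = 1.3e-06).

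Lif, leukemia inhibitory factor and the neighbour of Osm on chromosome 11 (4257568 to 4272514), rose from 0.450 ± 0.110 CPM (SD, n = 3) to 6.97 ± 1.98 CPM (SD, n = 4) at 24 h. Its log2 fold change was 2.43 (SE 0.19, limma q = 1.6e-06), and the hearts at 4 h lay between at 0.865, 1.24 and 1.28 CPM. Compared directly with the hearts at 4 h, those at 24 h were higher in Il11 (log2 2.86, q = 1.9e-05), Osm (2.52, q = 1.3e-05) and Lif (1.87, q = 1.2e-05). Il6 differed by a log2 value of -0.03 (95% interval -0.52 to 0.46, q = 0.91) between the same groups. By mean level, Il6 thus stood at 25.2 CPM at 24 h and 24.7 CPM at 4 h, neighbours that overlapped.

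Among the receptor subunits, Osmr and Il6ra rose, Lifr fell and Il6st was not called. Osmr, the oncostatin M receptor (chromosome 15, 6813577 to 6874313, minus strand), went from 14.4, 13.7 and 10.6 CPM in controls to 93.6, 92.5, 101 and 104 CPM at 24 h. The 24 h hearts lay close together, 7.59 ± 1.27-fold (propagated SD) above the controls, with a log2 fold change of 2.84 (SE 0.22, limma q = 1.2e-06). Il6ra, the IL-6 binding subunit (chromosome 3, 89869324 to 89913196, minus strand), rose from 4.52, 2.70 and 2.67 CPM to 17.4, 13.0, 7.97 and 9.13 CPM (log2 1.55, q = 0.00015).

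Lifr, the LIF receptor (chromosome 15, 7129572 to 7197489), had 40.3, 38.2 and 42.5 CPM in controls, 37.9, 36.8 and 33.6 CPM at 4 h and 15.4, 16.4, 20.9 and 13.3 CPM at 24 h. It fell to 0.409 ± 0.0827 of the control mean, with a log2 fold change of -1.26 (SE 0.13, limma q = 9.7e-06). Il6st, the shared chain (chromosome 13, 112464070 to 112506860), had a mean of 180.1 CPM in controls, 161 CPM at 4 h and 181.5 CPM at 24 h, and its log2 value at 24 h was -0.01 (95% interval -0.29 to 0.28, q = 0.97). Thus, in the same hearts the subunits of the family moved in both directions. Stat3 (chromosome 11, 100886806 to 100939540, minus strand) was 1.74-fold higher at 24 h, at 225, 254, 246 and 224 CPM beside 141, 146 and 123 CPM in controls (log2 0.80, q = 0.00023).

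**Figure D1:**
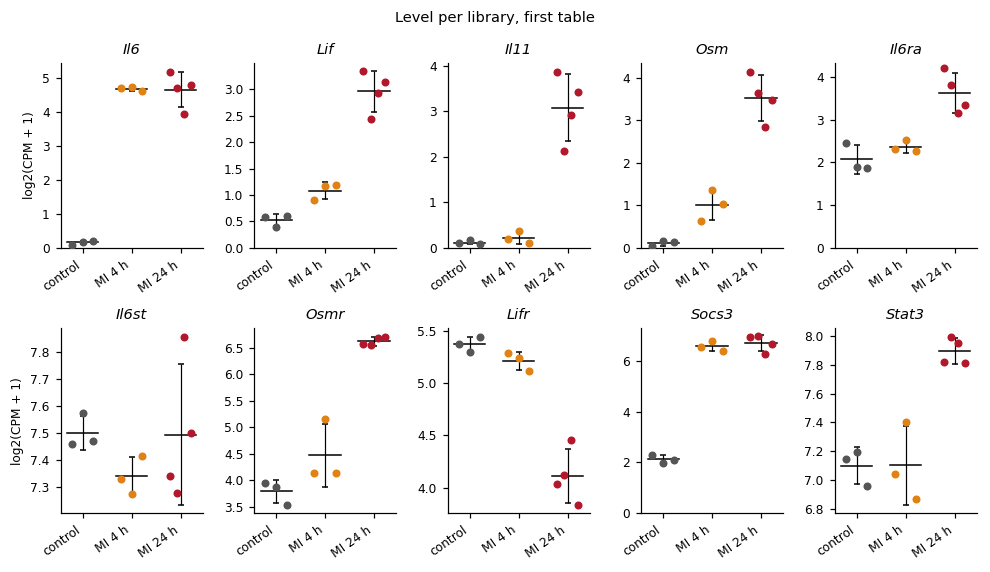
Level of each member in log2(CPM + 1) in the control, MI 4 h and MI 24 h libraries of the first table, 1 point per library, with the group mean (horizontal line) and SD (bar). The 4 h points of Il6 and Socs3 lie within the range of the 24 h points, whereas the points of Lif, Il11, Osm and Osmr were highest at 24 h, and the vertical axes of Il6st, Osmr, Lifr and Stat3 do not start at 0.

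The hearts at 24 h and 4 h differed in 7 of the 10 members, 6 higher and 1 lower at 24 h, beside 63.9% of all genes tested. Osmr differed by a log2 value of 2.16 (q = 1e-05), Il6ra by 1.26 (q = 0.00075), Stat3 by 0.79 (q = 0.00026) and Lifr by -1.10 (q = 3.1e-05). The 3 not called were Il6, Socs3 (log2 0.13, 95% interval -0.24 to 0.50) and Il6st.

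Cell markers were summed in the same hearts. Some of the sums differed between the groups, and their part in the changes of the members was not tested. The summed level of 8 neutrophil markers was 1.98 to 3.58 CPM in controls, 7.86 to 32.3 CPM at 4 h and 311 to 1949 CPM at 24 h. Every gene listed in the first table was above 0 in all 10 libraries. Library G at 24 h had the lowest neutrophil sum of its group, 311 CPM, and the lowest Il6, Osm, Il6ra and Socs3. It also had the highest Il6st and Lifr of the group, and the highest cardiomyocyte, fibroblast and endothelial sums (35360, 1023 and 601 CPM). Its correlation with MI 4 h library D, 0.924, was the highest of the group with any library of another group. The sum of 8 cardiomyocyte markers was 48000 to 51280 CPM in controls, 47470 to 51550 CPM at 4 h and 20870 to 35360 CPM at 24 h. Markers of monocytes and macrophages (9 genes) summed to 121 to 200 CPM in controls, 136 to 170 CPM at 4 h and 346 to 612 CPM at 24 h. Those of fibroblasts (7 genes) summed to 905 to 1022 CPM in controls, 1205 to 1515 CPM at 4 h and 514 to 1023 CPM at 24 h, so that every 4 h heart was above every other heart. Endothelial markers (6 genes) summed to 537 to 554 CPM in controls, 472 to 679 CPM at 4 h and 386 to 601 CPM at 24 h. Lymphocyte markers (7 genes) summed in the same order to 1.41 to 2.34, 3.05 to 4.36 and 5.76 to 9.13 CPM, and the 3 atrial markers listed to 80.5 to 296, 111 to 181 and 1150 to 1822 CPM.

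In the hearts injected with Luc modRNA, Il6 and Socs3 were again the members that rose at 4 h, 2 of the 9 tested, beside 1.55% of all genes called. Il6 had 2.67 and 3.11 CPM in the sham hearts, 57.2, 35.6, 50.7 and 32.9 CPM at 4 h, 128, 34.5 and 24.0 CPM at 24 h and 6.28, 3.65, 9.75 and 1.83 CPM at 48 h. Each infarcted heart lay above both sham hearts at 4 h and 24 h, whereas at 48 h library 4 lay below them. The log2 fold change was 3.50 at 4 h (SE 0.68, limma q = 0.0059), 3.64 at 24 h (SE 0.71, limma q = 0.00054) and 0.54 at 48 h (95% interval -0.86 to 1.94, q = 0.58). Without sham library 1, the q at 4 h was 0.14. The groups at 4 h did not overlap for 6 of the 9 members tested, 5 higher and 1 lower, beside 32.5% of all genes tested. Osmr, at 31.9, 27.2, 37.0 and 24.8 CPM (log2 1.12, q = 0.14), Osm, with a mean of 1.40 CPM (0.98, q = 0.15), and Lif, with a mean of 1.16 CPM (0.96, q = 0.43), lay above the sham hearts without being called, and Lifr lay below them, with a mean of 31.1 CPM (-0.39, q = 0.46). Without both 24 h libraries A, Il6 at 24 h had a log2 fold change of 2.94 against sham (q = 0.00017). Without both 24 h libraries A the log2 difference between 24 h and 4 h was -0.56 instead of 0.14, and neither was called (q = 0.35 and 0.88). Library A had the most Il6 of the Luc hearts at 24 h, so that leaving it out could only lower these values.

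Socs3 had 8.64 and 17.9 CPM in the sham hearts, 174, 150.5, 143 and 150.3 CPM at 4 h, 231, 104 and 107 CPM at 24 h and 46.8, 21.1, 36.7 and 15.7 CPM at 48 h. Every infarcted heart at 4 h and 24 h was above the sham hearts, and 1 heart at 48 h, library 4, fell below the higher of them. The log2 fold change was 3.52 at 4 h (SE 0.47, limma q = 0.00014), 3.35 at 24 h (SE 0.50, limma q = 3.1e-05) and 1.08 at 48 h (q = 0.087). Without both 24 h libraries A, that at 24 h was 2.98 (q = 5.4e-05). Between 24 h and 48 h, Socs3 fell by 2.27 on the log2 scale (q = 0.00028) and Il6 fell by 3.10 (q = 0.00042).

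The uninjured levels differed between the tables, which were normalized separately and are set side by side without a test. Il6 was 0.119 ± 0.0451 CPM (SD, n = 3) in the control hearts of the first and 2.89 ± 0.309 CPM (SD, n = 2) in the sham hearts of the second, and Socs3 was 3.38 and 13.3 CPM. The first group is labelled as not operated on, although the paper describes its hearts as sham operated. The second is labelled as sham operated at 4 h. Il6st was at 180.1 and 182.5 CPM, Lifr at 40.4 and 41.0 CPM and Lif at 0.450 and 0.0961 CPM.

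At 24 h, 7 of the 9 members tested were higher with Luc than in sham hearts and 1, Lifr, was lower, beside 34.1% of all genes called. Osmr rose from 11.6 and 15.2 CPM to 125, 78.0 and 52.8 CPM (log2 2.51, q = 3.7e-05), and Il6ra from 1.83 and 3.78 CPM to 11.2, 15.8 and 11.1 CPM (log2 1.89, q = 2e-05). Neither gene overlapped between the groups. Lif had 21.3, 2.67 and 1.96 CPM at 24 h and 0.0652 and 0.127 CPM in sham hearts (log2 2.51, q = 0.0014), so that library A held most of the group mean. Without both libraries A the log2 fold change of Lif was 1.59 (q = 0.00015). Osm had 3.36, 2.26 and 2.59 CPM beside 0.163 and 0.254 CPM in sham (log2 1.62, q = 0.001). Stat3 rose to 454, 347 and 308 CPM from 94.6 and 172 CPM (log2 1.51, q = 0.00018).

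Lifr, at 25.8, 30.6 and 19.8 CPM beside 39.9 and 42.0 CPM in sham hearts, had a log2 fold change of -0.69 (SE 0.24, limma q = 0.031). This call was lost, with a highest q of 0.13, in 4 of the 5 fits that left out a library, those without Luc 24 h library A or D or without either sham library. Il6st was not called, with a log2 value of -0.16 (95% interval -0.60 to 0.27). Without both libraries A, 8 of the 9 members were called, as with them, beside 28.3% of all genes.

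Il11 was listed in the second table at 0.0978 and 0.0317 CPM in sham hearts, 0.105, 0.0351, 0.102 and 0.110 CPM with Luc at 4 h, 0.875, 0.109 and 0.274 CPM at 24 h and 0.985, 1.81, 0.298 and 1.99 CPM at 48 h. Thus 3 of the 4 hearts at 48 h were above every Luc heart at 4 h and 24 h, whereas in the first table it was already at 3.38 CPM or more in each heart at 24 h. The tables were normalized separately and the difference was not tested. With the filter lowered to a mean of 0.1 CPM, Il11 was higher at 48 h than in sham (log2 1.02, q = 0.0079) and than at 24 h (0.64, q = 0.039).

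Cell markers differed between these 24 h hearts and those of the first table, and their part in the difference was not tested. In the second table the cardiomyocyte markers summed to 51550 and 52870 CPM in the sham hearts and to 61070 to 77520 CPM with Luc at 24 h, and the neutrophil markers to 3.08 and 21.4 CPM in sham and 47.3 to 95.7 CPM at 24 h. Mmp8 and Ly6g were at 0 in at least 1 library. With Luc at 4 h the cardiomyocyte markers summed to 52320 to 61830 CPM and the neutrophil markers to 76.9 to 162 CPM, and with Luc at 48 h to 35120 to 48220 CPM and 137 to 446 CPM. Markers of monocytes and macrophages summed to 161 and 208 CPM in sham and 107 to 145 CPM at 24 h, fibroblast markers to 789 and 860 CPM and 935 to 1417 CPM, and endothelial markers to 431 and 509 CPM and 598 to 749 CPM. Lymphocyte markers summed to 1.99 and 2.09 CPM in sham and 3.87 to 9.24 CPM at 24 h, and the 4 atrial markers to 60.7 and 117 CPM and 362 to 603 CPM. With Luc at 4 h the sums were 193 to 241 CPM for monocytes and macrophages, 941 to 1071 CPM for fibroblasts, 538 to 609 CPM for endothelium, 3.41 CPM (median) for lymphocytes and 109 to 171 CPM for atrial markers. With Luc at 48 h they were 219 to 312, 877 to 1700, 310 to 499.5, 2.13 to 19.3 and 533 to 1169 CPM. In the Luc hearts, too, the part of these markers in the changes of the members with time was not tested.

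At 48 h, 4 of the 9 members differed from sham with Luc, Osmr, Il6ra and Osm higher and Il6st lower, beside 30.1% of all genes. Osmr had 48.5, 41.3, 56.5 and 35.9 CPM (log2 1.69, q = 0.0013) and Il6ra had 10.6, 5.26, 8.59 and 6.30 CPM (log2 1.20, q = 0.0012). Neither gene overlapped the sham hearts, although Il6ra was not called without sham library 1 (highest q 0.071). Osm had 1.20, 0.730, 3.18 and 0.608 CPM (log2 0.90, q = 0.039), and its call was lost without library 1 or 3 or without either sham library (highest q 0.18). Il6st had 121, 132, 99.6 and 161 CPM beside 168 and 197 CPM (log2 -0.52, q = 0.049), a call lost in 5 of the 6 fits that left out a library, all but the one without library 4. Without the Luc 48 h libraries 1 and 3, the calls were 2, beside 20.1% of all genes, with Osm (q = 0.30) and Il6st (q = 0.31) lost. Without sham library 1, 1 member was called, Osmr.

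**Figure D2:**
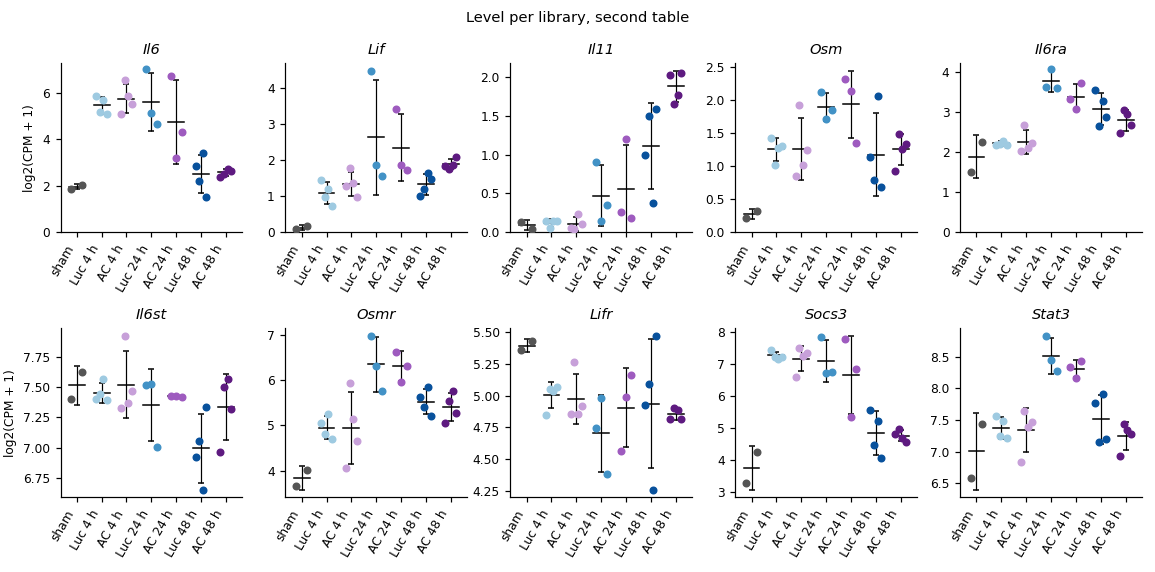
Level of each member in log2(CPM + 1) in the sham, Luc and AC libraries of the second table at 4, 24 and 48 h, 1 point per library, with the group mean (horizontal line) and SD (bar). Il6 and Socs3 were high at 4 h and 24 h and lower at 48 h in both modRNA arms, the mean of Il11 was highest at 48 h, and the vertical axes of Il6st, Osmr, Lifr, Socs3 and Stat3 do not start at 0.

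Compared directly, the Luc hearts at 24 h and 4 h differed in 4 of the 9 members, all higher at 24 h, beside 32.3% of all genes. These were Il6ra (log2 1.55, q = 3.2e-05), Stat3 (1.14, q = 0.0006), Osmr (1.40, q = 0.0021) and Lif (1.55, q = 0.013). Lif was not called without Luc 24 h library A (log2 0.63, q = 0.17), but was without both 24 h libraries A (0.63, q = 0.043). From 24 h to 48 h, 7 of the 9 members fell, beside 41.9% of all genes called in either direction. The log2 changes of the other 5 were -1.01 for Stat3 (q = 0.0012), -0.68 for Il6ra (q = 0.018), -1.31 for Lif (q = 0.027), -0.82 for Osmr (q = 0.04) and -0.72 for Osm (q = 0.046). Il6st (-0.36, q = 0.10) and Lifr (0.24, q = 0.36) were not called. The calls of Il6, Socs3 and Stat3 held in each of the 7 fits that left out a library. Osm lost its call in 6 of them, all but the one without Luc 48 h library 3, and Osmr in 5, those without Luc 24 h library A or C or Luc 48 h library 1, 2 or 4. Lif lost it in 3, those without Luc 24 h library A or Luc 48 h library 1 or 2, and Il6ra in 2, those without Luc 24 h library C or Luc 48 h library 2. Without both 24 h libraries A, 4 members were called, beside 38.1% of all genes.

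The scaling of the libraries bears on these falls. The median log2 change of all genes was -0.25 between 48 h and 24 h, 0.16 between 24 h and sham, 0.14 between 24 h and 4 h and 0.14 between AC and Luc at 48 h, and median-ratio scaling brought each to within 0.03 of 0. It moved the share of higher genes among those called from 22.3% to 49.0% for 48 h against 24 h, from 74.2% to 52.8% for 24 h against sham, from 75.9% to 52.4% for 24 h against 4 h and from 78.7% to 50.6% for AC against Luc at 48 h. Under it, Il6, Socs3 and Stat3 still fell from 24 h to 48 h, while Lif (-1.13, q = 0.064), Osm (-0.56, q = 0.15), Il6ra (-0.46, q = 0.12) and Osmr (-0.58, q = 0.19) were no longer called. The number of members called at 24 h was 8 against sham and 4 against 4 h under either scaling.

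**Figure D3:**
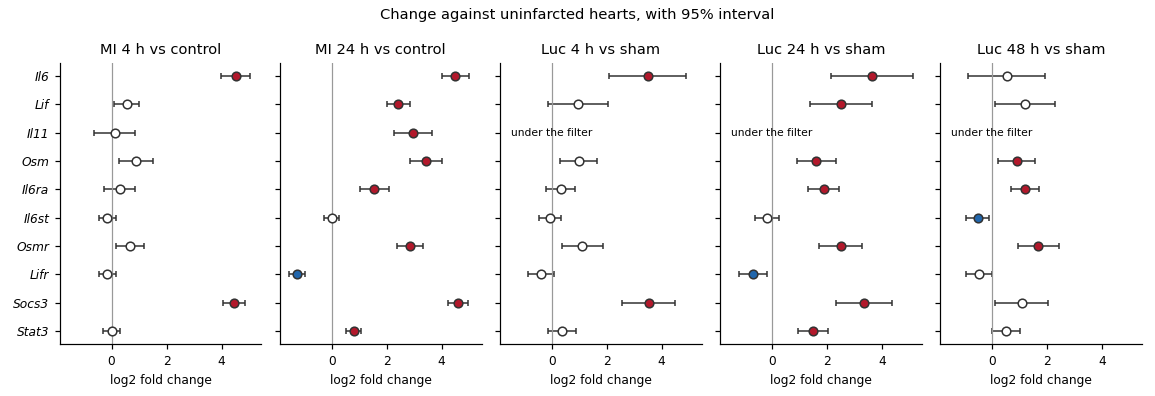
Log2 fold change of each member against control or sham hearts, with its 95% interval (limma), in 5 comparisons, with filled points for a q under 0.05 (red higher, blue lower). Il6 and Socs3 lead at 4 h, Osmr, Il6ra, Lif, Osm and Stat3 join them at 24 h, and Il11 is not drawn in the second table, where it stayed under the filter.

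AC and Luc hearts did not differ in any of the 9 members tested at any of the 3 times (limma), and none of the 9 passed an unadjusted p of 0.05 at 4 h or 24 h. All genes called between them came to 0.00796% at 4 h, 0.00796% at 24 h and 15.3% at 48 h. With AC, Il6 had 32.7, 93.5, 57.2 and 44.8 CPM at 4 h, 106, 8.07 and 19.1 CPM at 24 h and 4.27, 4.72, 5.67 and 5.26 CPM at 48 h. Socs3 with AC had 95.8, 181, 153 and 162 CPM at 4 h, 221, 39.7 and 113 CPM at 24 h and 26.8, 30.5, 25.0 and 22.5 CPM at 48 h. The AC and Luc hearts overlapped for both genes at each time. AC 24 h library C was the lowest of the 6 hearts at 24 h in both, and its neutrophil markers summed to 318 CPM, beside 47.3 to 95.7 CPM in the other 5. It also had the highest monocyte and macrophage sum of the 6 (259 CPM) and the lowest cardiomyocyte and fibroblast sums (54180 and 878 CPM). The part of these markers was not tested.

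The intervals leave room for differences of some size. The log2 difference of AC to Luc in Il6 was 0.30 at 4 h (95% interval -0.85 to 1.44), -0.85 at 24 h (-2.17 to 0.47) and 0.07 at 48 h (-1.07 to 1.22). For Socs3 it was -0.10 at 4 h (-0.89 to 0.70), -0.45 at 24 h (-1.37 to 0.47) and -0.08 at 48 h (-0.87 to 0.72). Over the 9 members, the differences ranged from -0.10 for Socs3 to 0.30 for Il6 at 4 h, from -0.85 for Il6 to 0.20 for Lifr at 24 h and from -0.29 for Il6ra to 0.56 for Lif at 48 h. Il6st at 48 h, at 124, 181, 189 and 159 CPM with AC, had a difference of 0.35 (95% interval 0.01 to 0.68, unadjusted p = 0.044, limma q = 0.15). Whether the difference between AC and Luc changed with time was tested too, and 0 of the 9 members passed, beside 0.00796% of all genes for 24 h against 4 h, 3.35% for 48 h against 4 h and 2.56% for 48 h against 24 h. None of the 9 had an unadjusted p under 0.05 in these 3 tests. Median-ratio scaling moved the share of higher genes among those called in the last 2 of these tests from 86.0% to 58.8% and from 87.0% to 55.7%, with 0 members called.

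At 48 h the AC and Luc hearts did not overlap for 1 of the 9 members tested, Lif, beside 19.1% of all genes tested, nor for Il11. Il11 had 3.08, 2.14, 2.41 and 3.15 CPM with AC and at most 1.99 CPM with Luc. It was under the filter of the main test, and with the filter at 0.1 CPM its log2 difference was 0.77 (q = 0.023), and 0.77 with no filter (q = 0.027). The Luc hearts of libraries 2 and 4 had 1.81 and 1.99 CPM, the highest of their group, so that the groups did not overlap without libraries 1 and 3 either, and the difference was not tested without them. Lif had 2.61, 2.41, 2.66 and 3.26 CPM with AC beside 1.02, 1.29, 2.16 and 1.77 CPM with Luc, a difference of 0.56 (95% interval -0.32 to 1.44, q = 0.39). Fibroblast markers summed to 2085 to 3533 CPM with AC at 48 h and 877 to 1700 CPM with Luc, and cardiomyocyte markers to 25970 to 32970 CPM and 35120 to 48220 CPM. Markers of monocytes and macrophages summed to 446 to 661 CPM with AC and 219 to 312 CPM with Luc, and neutrophil markers to 123 to 170 CPM and 137 to 446 CPM. Atrial markers summed to 1227 to 2966 CPM with AC and 533 to 1169 CPM with Luc, without overlap. Their part in the levels of Il11 and Lif was not tested.

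Across all libraries of a table, Il6 and Socs3 followed each other closely. The Pearson correlation of log2(CPM + 1) was 0.995 over the 10 libraries of the first table and 0.966 over the 24 of the second, a description in which the points share the contrast of uninfarcted and infarcted hearts. Among genes averaging 10 CPM or more, Socs3 was the gene most like Il6 in both tables. In the first table it was followed for Il6 by the chemokine Cxcl1 (0.994), the stress factor Atf3 (0.990), the AP-1 subunit Junb (0.989) and Cyr61 (0.986). In the second it was followed by the RNA-binding Arid5a (0.961) and Zfp36 (0.957), the chemokine Cxcl10 (0.955) and Tnfaip2 (0.954). The genes most like Socs3 in the first table were Il6, Atf3 (0.993), Cebpd (0.993), Cxcl1 (0.992) and Cyr61 (0.989). In the second they were Arid5a (0.974), Zfp36 (0.970), Il6, the immediate early factor Egr1 (0.962) and Trib1 (0.956).

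**Figure D4:**
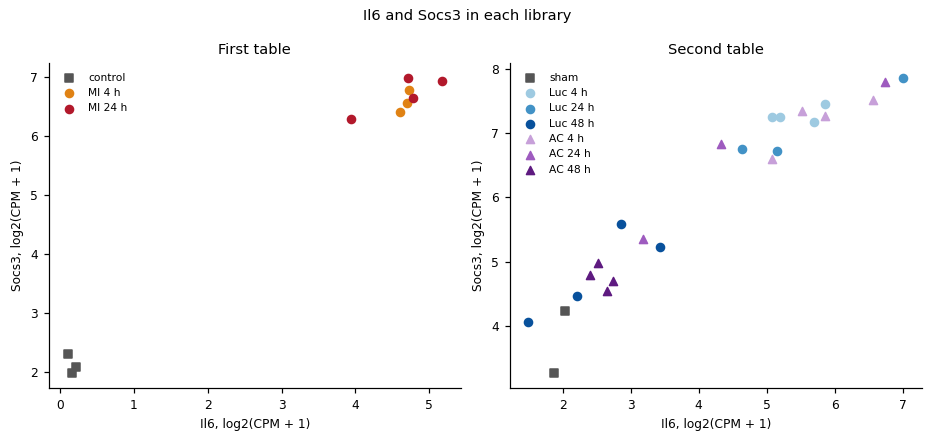
Socs3 against Il6 in log2(CPM + 1), 1 point per library, in the first table (left) and the second table (right), with squares for control or sham, circles for MI or Luc and triangles for AC. Control and infarcted hearts form separate groups in the first table, and the 48 h hearts of the second lie near the sham hearts, with a correlation of 0.995 over 10 and 0.966 over 24 libraries.

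The wider pathway was read from 4 lists. Of the 17 STAT3 target genes tested in the first table, 8 were higher at 4 h and 16 at 24 h, and none was lower, beside 2.37% and 66% of all genes called. Their median log2 fold changes were 1.36 and 2.82, beside -0.03 and 0.04 for all genes. At 4 h these were led by the factors Myc (9.93-fold, q = 3e-06), Junb (6.60-fold, q = 1.4e-05) and Cebpd (8.16-fold, q = 1.8e-05) and by the neutrophil protein Lcn2 (8.35-fold, q = 0.028). At 24 h they were led by the protease inhibitor Timp1, from 0.921 to 271 CPM (log2 7.11, q = 2e-08), Lcn2 (log2 6.78, q = 2.9e-07), haptoglobin Hp (5.46, q = 2.8e-06) and the serum amyloid Saa3 (5.08, q = 9.8e-07). Several of these are also made by neutrophils and macrophages, whose summed markers were higher at 24 h than in every control heart. At 4 h the neutrophil sum was higher too. That of monocytes and macrophages, at 136 to 170 CPM, overlapped the controls at 121 to 200 CPM. The part of these cells was not tested. Compared to 4 h, 14 of the 17 were higher at 24 h, beside 63.9% of all genes called, Timp1 by a log2 value of 6.09 and Hp, Lcn2 and Saa3 by 4.80, 4.64 and 4.60.

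Other ligands and receptors of the family were called in 0 of 8 at 4 h and in 7 of 8 at 24 h, 5 higher and 2 lower. Beside these stood 2.37% and 66% of all genes called, and a list of 8 genes is too short to read the count alone. The ligands Clcf1 (17.5-fold, q = 3.3e-07) and Cntf (21.9-fold, q = 2.2e-06) and the receptor Cntfr (3.47-fold, q = 0.0003) rose at 24 h, as did Ebi3, while Ctf1 and Il11ra1 were the 2 that fell. From 4 h to 24 h, Clcf1 and Cntf rose by log2 values of 2.87 and 2.08, and cardiotrophin Ctf1 fell by 1.11 (q = 0.00057). Of the 9 kinases and adaptors, none was called at 4 h, and at 24 h 3 were higher, Jak2 (2.49-fold, q = 5.8e-06), Shc1 (2.24-fold, q = 6.9e-07) and Jak3 (1.53-fold, q = 0.0042), and 2 were lower, Ptpn11 and the adaptor Gab1 (log2 -1.36, q = 1.7e-05), in all a smaller share than that of all genes. Compared to 4 h, 4 of the 9 were higher and 1 lower at 24 h, with log2 values of 1.07 for Shc1, 0.94 for Jak2, 0.64 for Jak3 and -1.24 for Gab1. In the same comparison 63.9% of all genes were called.

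Of the 13 negative regulators, 1 was higher at 4 h, Socs2 (1.96-fold, q = 0.036). At 24 h 3 were higher and 3 lower, a smaller share than the 66% of all genes. The phosphatases Ptpn6 (11.6-fold, q = 1.9e-06) and Ptpn2 (log2 1.68, q = 1.6e-06) and Socs1 (6.63-fold, q = 0.0004) rose, and Cish, Socs7 and Pias1 (log2 -0.39, q = 0.0034) fell. From 4 h to 24 h, 6 were higher and 2 lower, with log2 values of 3.11 for Ptpn6, 1.29 for Ptpn2, 1.07 for Socs1 and -0.80 for Cish. Here, too, 63.9% of all genes were called. Ctf2, Il27, Il31ra, A2m, Reg3b and Fgg were not among the genes of the first table used here.

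In the second table, 6 of the 18 STAT3 target genes tested were higher with Luc at 4 h, 15 at 24 h and 9 at 48 h, and none was lower than sham, beside 1.55%, 34.1% and 30.1% of all genes called. Their median log2 fold changes were 1.47, 2.87 and 1.0, beside 0.02, 0.16 and -0.03 for all genes. Without both 24 h libraries A, 15 were higher and 1, Vegfa, was lower at 24 h, and without Luc 48 h libraries 1 and 3, 8 were higher and 1 lower at 48 h. In these fits 28.3% and 20.1% of all genes were called. The 4 h rise was led by Junb (11.2-fold, q = 0.00021), Bcl3 (5.03-fold, q = 0.0066), Myc (3.34-fold, q = 0.01) and Cebpd (3.20-fold, q = 0.035). At 24 h Lcn2 (log2 6.80, q = 8.8e-08), Saa3 (6.21, q = 1.6e-06), Serpina3n (6.21, q = 5.4e-06) and Hp (4.43, q = 3.5e-06) led. At 48 h the order was Lcn2 (5.26, q = 1.5e-06), Timp1 (4.95, q = 3.8e-07), Hp (4.46, q = 2.8e-06) and Serpina3n (4.10, q = 0.00033). Between 4 h and 24 h, 13 rose and 1, Vegfa, fell, with log2 values of 5.48 for Saa3, 4.96 for Lcn2, 4.21 for Serpina3n and 2.73 for Lrg1. From 24 h to 48 h, 11 fell and 2, Timp1 and Vegfa, rose, with log2 values of -3.44 for Icam1, -2.11 for Serpina3n, -2.05 for Bcl3 and -2.02 for Junb. All genes called came to 32.3% between 4 h and 24 h and 41.9% between 24 h and 48 h.

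The remaining lists were counted in the Luc hearts beside the same 1.55%, 34.1% and 30.1% of all genes. For 24 h against 4 h and 48 h against 24 h, 32.3% and 41.9% of all genes were called. The median log2 changes of all genes in these 2 comparisons were 0.14 and -0.25. Of 7 other ligands and receptors tested, 0 were higher at 4 h, 4 at 24 h and 3 at 48 h, with 1 lower at 48 h. Those at 24 h included Cntfr (9.44-fold, q = 5.5e-06), Clcf1 (4.67-fold, q = 0.003) and Il11ra1, the IL-11 receptor (1.94-fold, q = 0.0037). At 48 h Clcf1 (5.48-fold, q = 0.0018) was among the higher and Ctf1 (log2 -0.43, q = 0.04) was lower. From 4 h to 24 h 2 rose, Cntfr (log2 1.93) and Clcf1 (1.27), and from 24 h to 48 h 3 fell, Cntfr (-1.56), Il11ra1 (-0.95) and Ctf1 (-0.69).

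Kinases and adaptors were called in 0 of 9 at 4 h and in 5 at 24 h, all higher, including Jak3 (2.76-fold, q = 0.00052), Jak2 (2.13-fold, q = 0.0039) and Shc1 (1.80-fold, q = 0.0035). At 48 h Jak3 (2.11-fold, q = 0.0036) was higher and 3 were lower, Gab1, Jak1 (log2 -0.61, q = 0.012) and Grb2 (-0.53, q = 0.014). From 4 h to 24 h 5 rose, including Ptpn11 by 0.75, Jak3 by 0.74 and Jak2 by 0.74 on the log2 scale, and from 24 h to 48 h 6 fell, including Jak2 (-0.83), Ptpn11 (-0.74) and Grb2 (-0.70). Of all genes, 32.3% were called from 4 h to 24 h and 41.9% from 24 h to 48 h.

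Negative regulators were higher in 1 of 13 at 4 h, Socs1 (8.59-fold, q = 0.043), in 6 at 24 h and in 1 at 48 h, Ptpn6 (7.10-fold, q = 2.5e-07). Those at 24 h were led by Socs1 (25.1-fold, q = 2.2e-05), Ptpn6 (3.44-fold, q = 8.6e-05), Socs2 (2.17-fold, q = 0.014) and Pias4 (2.02-fold, q = 0.0032). From 4 h to 24 h 7 rose, among them Socs1 (log2 1.16), Socs2 (0.74), Pias1 (0.73) and Ptpn6 (0.64). From 24 h to 48 h 5 fell and 2 rose, with values of -2.29 for Socs1, -0.87 for Socs2, -0.63 for Socs7 and 0.94 for Ptpn6. Beside these stood 32.3% of all genes called from 4 h to 24 h and 41.9% from 24 h to 48 h. Socs1 stood at 0.271 CPM in sham hearts, so that its ratios rest on a low base. For the other ligands and receptors, the kinases and adaptors and the negative regulators, the calls at 24 h were 4, 5 and 4 without both 24 h libraries A, and those at 48 h were 2, 2 and 1 without Luc 48 h libraries 1 and 3. All genes called in these fits came to 28.3% at 24 h and 20.1% at 48 h.

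**Figure D5:**
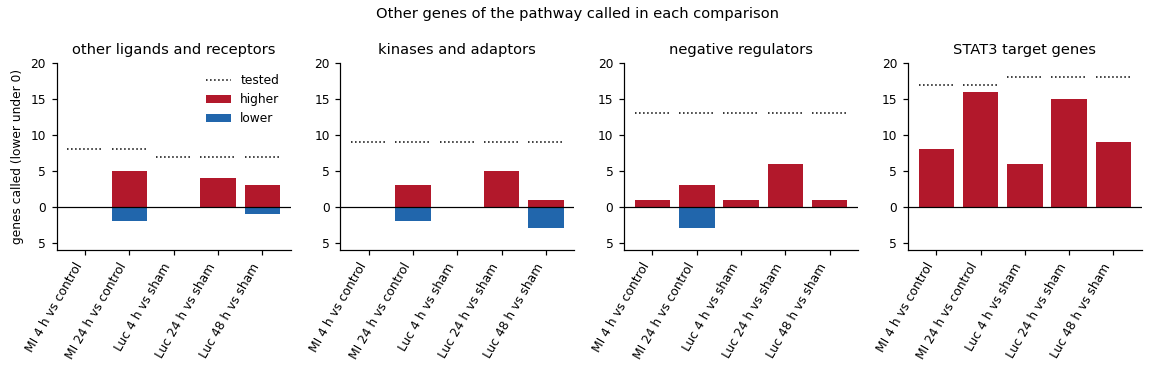
Number of genes called higher (red, upward) or lower (blue, downward) by limma in each of 4 lists of the pathway, in 5 comparisons with control or sham hearts, with dotted lines at the number tested. The STAT3 target genes were called at each time, 8 and 16 of 17 in the first table and 6, 15 and 9 of 18 in the second, and in the other lists the calls at 24 h stand beside 66% and 34.1% of all genes called.

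Between AC and Luc, no gene of the 4 lists was called at 4 h or 24 h. At 48 h, where 15.3% of all genes were called, 6 of the 18 STAT3 target genes differed, Timp1 higher with AC (2.17-fold, q = 0.044) and 5 lower, Saa3, Serpina3n, Lcn2 (log2 -1.85, q = 0.011), Lrg1 (-1.49, q = 0.0014) and Bcl2l1 (-0.71, q = 0.038). Of the other ligands and receptors, Il27ra was higher with AC (2.35-fold, q = 0.015) and Cntfr (log2 -1.04, q = 0.0068) and Ctf1 (-0.40, q = 0.038) were lower. Among kinases and adaptors 1, Tyk2, was higher and 1, the phosphatase Ptpn11 (-0.50, q = 0.014), lower, and among negative regulators Ptpn6 was higher (1.62-fold, q = 0.016). Without Luc 48 h libraries 1 and 3, none of these genes was called (0 of 18, 7, 9 and 13 tested), beside 2.72% of all genes, and the median log2 difference of the STAT3 target genes was -0.02 instead of -0.44. None of these lists was called for a change of the AC and Luc difference with time, except for 1 STAT3 target gene, Lrg1, whose difference was lower at 48 h than at 4 h.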

How the data were processed

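RNA-seq of the LV of CFW mice was analysed in 34 libraries. The authors used STAR to align single 50-bp reads to mm10 and Partek Flow to estimate gene counts (RefSeq of 2017), which were TMM-normalized, and the deposited values are CPM (per the paper for the first table, and not described for the libraries of the second). The second table had 1 added to each value, which was subtracted. Of low values (under 1 CPM) in the first table, 84.2% fell within 0.05 of a step on a multiple of 1 read, too few to recover reads, and the estimated depth was 12553519 to 18952669 reads. Low values therefore rest on few reads.

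Groups came from the sample labels. Expression was tested within each table with limma 3.58.1 in R 4.3.3 (lmFit, eBayes with trend) on log2(CPM + 1), all groups in 1 model, for 12487 and 12555 genes that averaged 1 CPM or more. The Benjamini-Hochberg adjusted p, q, covers all of them, and a call is a q under 0.05. A log2 fold change on this scale understates that of low genes. Whether same-numbered libraries are from the same animal is not stated. Since no source says how the mice of the second table were sampled, p-values measure the spread between these libraries. Ratios are of group means, with propagated SDs. Intervals of estimated reads use the exact binomial method at a level of 95% and cover counting error only. They are approximate, since the reads are estimates. Sequence was read from RefSeq (GRCm38.p6). Python 3.11.15 was used for the rest, and the limma script was tested on simulated data. Whether the counting used strand is not given in the sources used here.

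The members, the 4 pathway lists and the 7 marker lists were chosen with earlier results of these data known. Named from the lists were up to 4 genes per list and comparison with the largest change among those with q under 0.05 and no overlap between libraries. Further genes of the lists that are named without values were chosen after their values were seen, and 2 listed genes are not reported here. Genes most like Il6 and Socs3 were the 5 of highest correlation. Alternatives were other pseudocounts, filters, models, weights and scaling, a replicate block and left-out libraries. Leaving out both 24 h libraries A, or Luc 48 h libraries 1 and 3, was chosen after the data were seen. These libraries had the most Il6 of their groups, so that leaving them out could only lower Il6 there.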

Additional observations from a re-analysis of the deposited data

Results flagged for a closer look

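A library far from the others of its group was looked for in 50 combinations of member and group, and 3 were found, about the 1 in 20 that chance gives. Lifr in AC 4 h library 2 was at 37.4 CPM, above the others at 27.9 to 29.3 CPM. Lifr in Luc 4 h library 1 was at 27.8 CPM, under the others at 31.8 to 32.6 CPM. Il11 in Luc 4 h library 2 was at 0.0351 CPM, under the others at 0.102 to 0.110 CPM, values at which few reads are counted.

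The change from control hearts differed between 24 h and 4 h post-MI in 7 of the 10 members of the first table, as tested directly by limma (24 h against 4 h). Of all genes tested, 63.9% were called in the same test. The difference came to 2.86 on the log2 scale for Il11, 2.52 for Osm, 2.16 for Osmr, 1.87 for Lif, 1.26 for Il6ra, 0.79 for Stat3 and -1.10 for Lifr.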

How the results depend on the processing

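The 43 called changes of members kept their direction in every alternative fit made of them, keeping the call in 572 fits and losing it in 60. Il6 and Socs3 against control hearts held at both times throughout, as did all member calls of the first table when a library was left out (2, 9 and 7 members for 4 h, 24 h and 24 h against 4 h). The number of members called at 4 h in the first table was 4 with only the groups compared and 4 with array weights, Lif and Osm being added. For Luc at 4 h it was 4 with a pseudocount of 0.1 CPM and 5 with only the groups compared. For Luc at 48 h against sham it was 2 with array weights and 2 without Luc 48 h libraries 1 and 3 (20.1% of all genes). For Luc 48 h against 24 h it was 4 with only the groups compared, 3 with median-ratio scaling and 4 without both 24 h libraries A (38.1% of all genes). For AC against Luc at 48 h it was 1, Il11, with a filter of 0.1 CPM and 1 without a filter, because Il11 then entered the test. Leaving out 1 library at a time gave 1 to 2 members for Luc at 4 h, 7 to 8 at 24 h, 1 to 6 at 48 h, 3 to 4 for 24 h against 4 h, 3 to 8 for 48 h against 24 h and 0 to 1 for AC against Luc at 48 h, the 1 being Il6st without Luc 48 h library 4. The causes of the other shifts were not tested.

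Differences that were not called changed sign as follows. With array weights, Stat3 was -0.07 at MI 4 h, Il6 0.08 for MI 24 h against 4 h, Il6ra -0.03 and Il6st -0.01 for AC against Luc at 4 h, Lif 0.06 and Socs3 0.07 at 24 h and Socs3 0.11 at 48 h. With median-ratio scaling, Il6 was -0.02 for Luc 24 h against 4 h and -0.05 for AC against Luc at 48 h. Without both 24 h libraries A, Il6 was -0.56 for Luc 24 h against 4 h and Lif 0.09 for AC against Luc at 24 h. Without Luc 48 h libraries 1 and 3, Il6 was -0.10 against sham, and Il6ra 0.03 and Socs3 0.49 for AC against Luc. With 1 library left out, Stat3 ranged from -0.15 to 0.12 at MI 4 h, Il6st from -0.13 to 0.07 at MI 24 h and Il6 from -0.21 to 0.21 for MI 24 h against 4 h. For Luc against sham, Il6ra ranged from -0.05 to 0.71, Stat3 from -0.06 to 0.80 and Il6st from -0.18 to 0.05 at 4 h, and Il6st from -0.28 to 0.01 at 24 h. For Luc 24 h against 4 h, Il6 ranged from -0.56 to 0.62, Socs3 from -0.54 to 0.03 and Il6st from -0.19 to 0.07. For AC against Luc, Lifr ranged from -0.12 to 0.01, Socs3 from -0.21 to 0.10, Il6ra from -0.10 to 0.12 and Il6st from -0.06 to 0.13 at 4 h. At 24 h, Socs3 ranged from -1.01 to 0.21, Lif from -0.83 to 0.63 and Il6st from -0.10 to 0.16, and at 48 h Socs3 from -0.34 to 0.17, Il6 from -0.26 to 0.38 and Lifr from -0.31 to 0.10.

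Same-numbered libraries did not deviate together in every pair, and no source pairs them. With a replicate block the members called stayed at 2, 9 and 7 in the first table, at 2 for Luc at 4 h and at 4 for Luc at 48 h, where Lif (q = 0.0044) and Socs3 (q = 0.041) took the place of Osm and Il6st. Under the block Il6ra was -0.10 at MI 4 h, Il6 0.21 for MI 24 h against 4 h and Socs3 0.03 for AC against Luc at 48 h. The block could not be fitted for Luc 24 h against sham or 4 h, or for 48 h against 24 h, which share fewer than 2 numbers.

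Over all genes, the 296 calls at MI 4 h became 705 with only the groups compared, 2500 with array weights and 117 with the replicate block. The 194 at Luc 4 h became 596 with only the groups compared. The 3774 at Luc 48 h became 1494 with only the groups compared and 2227 with array weights, and the 4058 for Luc 24 h against 4 h became 6147 with array weights. The 1926 for AC against Luc at 48 h became 1208 with only the groups compared, 3178 with array weights, 977 with the block and 341 without Luc 48 h libraries 1 and 3. With 2 sham hearts, and few reads under 1 CPM, small differences could not be seen.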
